A study of Mus musculus with 16 samples.

Results

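The genes described here encode the enzymes that build cholesterol and fatty acids, together with the SREBP regulators that control them, measured in the mouse hippocampus. The members are 30 named genes, and every probe set of the array that the platform annotation pairs with exactly 1 of their symbols was taken. A probe set is a group of short probes that reports on one transcript region. Such a probe set was listed for 29 of the 30 genes, the exception being Acat2, which encodes a thiolase that joins acetyl units at the head of the pathway. The 29 genes had 67 probe sets among the 45101 of the array. Of these, 53 lay at or above the intensity filter and 14 below it, and each of the 29 genes kept at least 1 probe set. The tests ran on 11664 genes, each represented by its probe set with the highest mean signal.

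RNA came from the hippocampus of male mice aged 2 months, strain label C56/BL6, on 16 Affymetrix arrays in 4 genotype groups of 4. WT arrays carry the genotype label wild type. APP_KO arrays lack APP, the amyloid precursor protein (label APP-/-), and APLP2_KO arrays lack its relative APLP2 (label APLP2-/-). N_dCKO arrays are labelled APP-/-; APLP2-/-, while the series title calls this line a neuronal double conditional knockout. Neither its Cre driver nor which cells carried the deletion was stated in the sources read. The labels leave unsaid whether a group's 4 samples came from different animals. P-values therefore reflect only how far the samples of a group varied, and that variation may be technical.

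Cholesterol is built from acetyl units through mevalonate, isoprenoid diphosphates, squalene and lanosterol. The brain makes its own cholesterol, because plasma lipoproteins do not cross the blood-brain barrier, and myelin-forming oligodendrocytes and astrocytes are known for high rates of synthesis. SREBP-2, encoded by Srebf2, is held in the endoplasmic reticulum by INSIG proteins when sterols are plentiful. When sterols run low it is cleaved and turns on most genes of the pathway, whereas SREBP-1, encoded by Srebf1, acts more on fatty acid synthesis. SREBPs act at sterol regulatory elements and E-boxes next to sites for the CCAAT-binding factor NF-Y.

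App read 13.6% of its WT mean in APP_KO and 11.8% in N_dCKO, and Aplp2 read 19.4% in APLP2_KO and 16.7% in N_dCKO, so the groups matched their labels. Neuronal markers were bright on all arrays, with Snap25 between 21900 and 25400. The median signal of an array ranged from 79.7 to 102. Gapdh control probes gave a 3′/5′ signal ratio, which rises as RNA degrades, of 0.764 ± 0.0153 in WT and 0.813 ± 0.0166 in N_dCKO (SD, n = 4), and these groups did not overlap. In bulk tissue, fewer cells of a type and less RNA per cell cannot be told apart.

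Most sterol enzymes read slightly below WT in both groups without APP, and 2 of the 29 members passed the test in at least 1 of the 8 comparisons run. Fdps, which makes farnesyl diphosphate, and Sc5d, a late desaturase of the sterol ring, were called lower in N_dCKO than in WT. Log2 fold changes were -0.38 ± 0.08 for Fdps (limma adjusted p = 0.0331) and -0.39 ± 0.09 for Sc5d (adjusted p = 0.0344), with values after ± being SE for fold changes throughout. A gene is called at an adjusted p below 0.05 over all 11664 genes. In this comparison 0.943% of all genes were called, and 0.694% of all genes were called lower. The lower calls were 81 of 110, or 148 of 150 when each array was centred on its median, which moved the median difference of all genes from WT to between -0.095 and -0.086. The calls were sensitive to single arrays: none was left without WT replicate 1, 2 or 4 or N_dCKO replicate 1 or 2, and 1 was left without WT replicate 3 or N_dCKO replicate 3 or 4. No member was called in APP_KO against WT, where 0.00857% of all genes were called; with the array number as a block in a fit of these groups alone, added after the data were seen, 1 member (Idi1) was called, beside 0.0514% of all genes. None was called in APLP2_KO against WT, where 0.129% of all genes were. The same count of 0 held for N_dCKO against APP_KO (0.352% of all genes called) and N_dCKO against APLP2_KO (0.0257%).

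Below the threshold, the signs of the members differed between groups. In APP_KO against WT 24 of 29 log2 fold changes were negative, with a median of -0.15 beside 0 for all genes, and 12 members had an unadjusted p below 0.05, all lower, against 3.16% of all genes lower at that threshold. In N_dCKO the median difference from WT was -0.11 with 25 of 29 members negative, and 6 were lower at an unadjusted p below 0.05, against 6.87% of all genes. In APLP2_KO against WT 1 member was lower and 1 higher at that threshold, beside 4.39% of all genes lower. There 11 of 29 were negative and the median was 0.04; under median centring of the arrays this became 20 of 29 and -0.04, so no direction can be given there. The same centring gave 29 of 29 and -0.24 in APP_KO, and 28 of 29 and -0.20 in N_dCKO. About as many genes overall were negative as positive: 51.7% in APP_KO, 53.3% in APLP2_KO and 51.3% in N_dCKO. These 3 comparisons share the WT arrays.

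**Figure D1:**
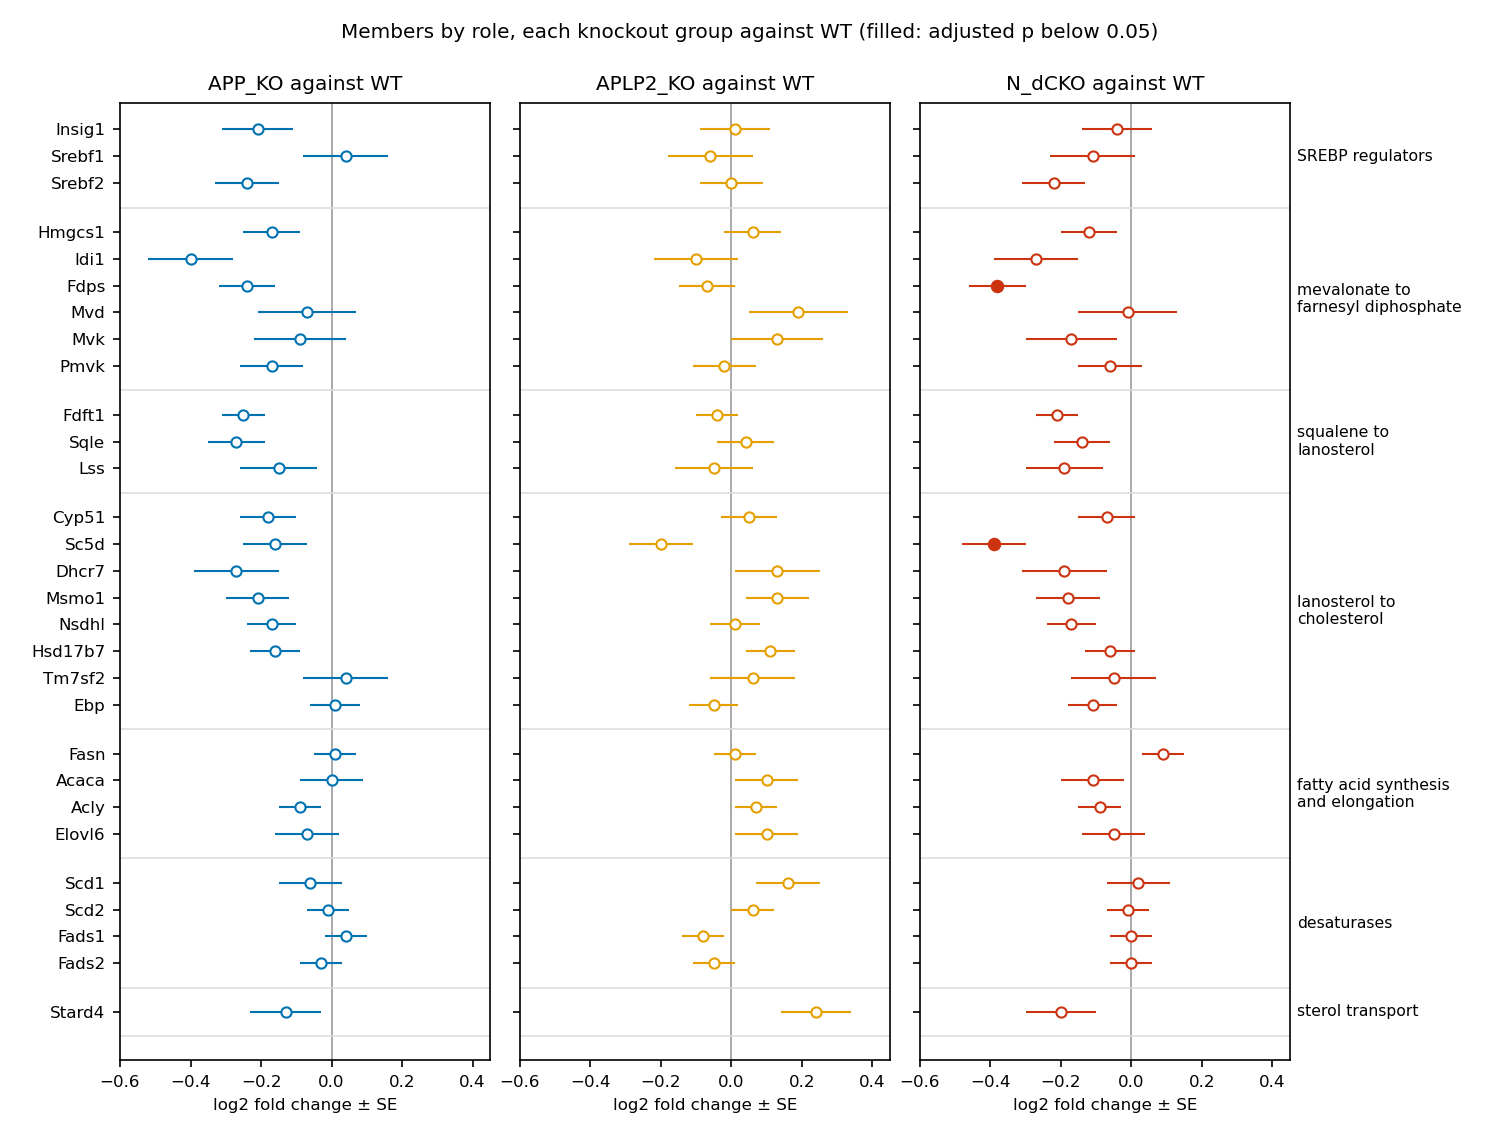
Log2 fold change (x axis, bars are SE) of each of the 29 members (rows, grouped by role) in APP_KO, APLP2_KO and N_dCKO against WT, 4 arrays per group. Filled points are Fdps and Sc5d in N_dCKO, the members called; sterol genes lie mostly left of 0 in the outer panels and fatty acid genes close to 0.

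None of the 3 SREBP regulators was called. Srebf2 read 581, 559, 749 and 709 on the WT arrays, 547, 560, 498 and 568 in APP_KO, 602, 616, 683 and 674 in APLP2_KO and 532, 613, 519 and 546 in N_dCKO. WT spanned the widest range and overlapped with each of the other groups. The log2 fold change of Srebf2 was -0.24 ± 0.09 in APP_KO (adjusted p = 0.903), 0.00 ± 0.09 in APLP2_KO (0.996) and -0.22 ± 0.09 in N_dCKO (0.345). A dimmer Srebf2 probe set gave -0.23, 0.26 and -0.07 in the same order.

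Insig1, which retains the SREBPs in the endoplasmic reticulum and is itself a target of SREBP-2, read 1358, 1217, 1018 and 1075 in WT and 935, 1195, 892 and 998 in APP_KO. It read 1166, 1270, 1144 and 1085 in APLP2_KO and 1189, 1151, 1196 and 993 in N_dCKO, so all groups overlapped. Its log2 fold change against WT was -0.21 ± 0.10 in APP_KO (adjusted p = 0.926), 0.01 ± 0.10 in APLP2_KO and -0.04 ± 0.10 in N_dCKO. Srebf1 showed differences of 0.04, -0.06 and -0.11, each ± 0.12, and its arrays ranged from 505 to 806.

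Promoters were sought for the called members and for those next in order of p in N_dCKO against WT. These were Fdps, Sc5d, Fdft1 and Srebf2. Only Sc5d and Srebf2 are shown, because the others were not in the RefSeq-derived table used (GRCm38.p6). Each is the 250 bases before the annotated start, 5′ to 3′ on the gene's strand, with matches to the searched motifs in capitals. Srebf2 lies on the plus strand at chr15:82147019-82147268 and Sc5d on the minus strand at chr9:42264301-42264550.
Srebf2: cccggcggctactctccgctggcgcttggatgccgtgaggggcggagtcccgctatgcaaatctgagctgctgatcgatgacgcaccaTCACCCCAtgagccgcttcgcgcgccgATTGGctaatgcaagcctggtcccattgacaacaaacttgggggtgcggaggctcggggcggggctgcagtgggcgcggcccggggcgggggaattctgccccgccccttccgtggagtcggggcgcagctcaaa
Sc5d: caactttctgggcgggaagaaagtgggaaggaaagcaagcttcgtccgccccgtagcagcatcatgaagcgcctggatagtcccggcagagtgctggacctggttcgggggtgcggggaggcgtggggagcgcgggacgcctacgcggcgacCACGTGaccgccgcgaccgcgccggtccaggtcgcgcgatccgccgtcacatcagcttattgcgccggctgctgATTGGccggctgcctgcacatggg

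Both strands were searched for CCAAT, the NF-Y box, and for TCACNCCAC, a core of the sterol regulatory element. TCACCCCA, a shorter form of that core, and the E-box CACGTG were added after these sequences had been read. The Srebf2 window holds TCACCCCA on the plus strand from -162 to -155 and CCAAT on the minus strand (printed as ATTGG) from -135 to -131, counted from the start. The Sc5d window holds CACGTG from -98 to -93, a palindrome that matches on both strands, and CCAAT on the minus strand from -24 to -20. Promoters were found for 23 of the 30 members, 28 in all since some genes have several starts. CCAAT occurred in 19 of these 28 (67.9%) and in 33.8% of all 32851 promoters of the same length. TCACNCCAC occurred in 1 of 28 (3.57%), that of Hmgcs1, against 1.05% of all. TCACCCCA occurred in 2 of 28 (7.14%, against 1.34%) and CACGTG in 4 of 28 (14.3%, against 6.02%). These counts include the Srebf2 and Sc5d windows, which were read before the motifs were added, so they are no test of an excess. A match is a string of letters and not a measured binding site.

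Of the 6 tested enzymes from acetyl units to farnesyl diphosphate, all had negative log2 fold changes in APP_KO and in N_dCKO against WT, with medians of -0.17 and -0.14, while 3 of 6 were negative in APLP2_KO. Fdps read 1923, 2178, 1817 and 1911 in WT, 1438, 1905, 1678 and 1604 in APP_KO, 2044, 1978, 1846 and 1602 in APLP2_KO and 1432, 1503, 1511 and 1548 in N_dCKO. Every N_dCKO array lay below every WT and every APLP2_KO array, while APP_KO lay between and overlapped with each group. N_dCKO kept 76.8% of the WT level. Fdps made 1 of the 5 members whose N_dCKO arrays all lay below the WT arrays, the others being Fdft1, Sqle, Sc5d and Msmo1. Over all genes this separation held for 4.46%. The call rests on 1 probe set, because the other Fdps probe set read 1.26 on average. Its adjusted p ranged from 0.015 to 0.136 when single arrays were left out, with 0.136 without WT replicate 2. In APP_KO, Fdps differed from WT by -0.24 ± 0.08 (adjusted p = 0.826).

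Idi1, which isomerises isopentenyl diphosphate, showed the largest difference of a member in APP_KO, -0.40 ± 0.12 (adjusted p = 0.826). Its signals were 2214, 3119, 2721 and 2661 in WT, 1554, 2523, 2179 and 1900 in APP_KO, 2394, 2528, 2653 and 2350 in APLP2_KO and 1963, 2464, 2206 and 2201 in N_dCKO. The lowest WT array lay within the ranges of APP_KO and N_dCKO and below all APLP2_KO arrays, and APP_KO array 1 was the lowest of all 16. Each APP_KO array read below the WT array of the same number. With that number as a block in a fit of WT and APP_KO alone, added after the data were seen, the difference was -0.40 ± 0.06 (limma adjusted p = 0.036). The labels state no pairing, and the block was chosen because these same arrays deviated together. A smaller SE follows in part from that choice. N_dCKO differed by -0.27 ± 0.12 (adjusted p = 0.348), and the other Idi1 probe set gave -0.44 in APP_KO and -0.29 in N_dCKO.

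Hmgcs1, which makes the precursor of mevalonate, differed from WT by -0.17 ± 0.08 in APP_KO and -0.12 ± 0.08 in N_dCKO. All 4 of its tested probe sets were negative in both, between -0.17 and -0.32 in APP_KO and between -0.12 and -0.35 in N_dCKO. The kinases Mvk and Pmvk and the decarboxylase Mvd, which carry mevalonate to isopentenyl diphosphate, lay between -0.17 and -0.01 against WT in both groups without APP. Mvk has another, dim probe set at 141 on average, which gave -0.91 ± 0.32 in APP_KO, and on it the APP_KO arrays ran from 28.9 to 174.

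Fdft1, the squalene synthase that commits farnesyl diphosphate to sterols, had the smallest p of the members in APP_KO. It read 3340, 3273, 3117 and 3104 in WT, 2654, 2977, 2770 and 2417 in APP_KO, 3209, 3378, 3048 and 2844 in APLP2_KO and 2946, 2743, 2711 and 2697 in N_dCKO. Neither APP_KO nor N_dCKO overlapped with WT, and both overlapped with the APLP2_KO range. Its log2 fold change was -0.25 ± 0.06 in APP_KO (adjusted p = 0.82) and -0.21 ± 0.06 in N_dCKO (adjusted p = 0.139), and the other tested probe set gave -0.34 and -0.31. Of the members, 3 separated downward from WT in APP_KO, namely Fdft1, Sqle and Nsdhl, beside 1.57% of all genes.

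Sqle, the squalene epoxidase, read 2054, 2001, 2071 and 2176 in WT and 1393, 1823, 1786 and 1946 in APP_KO. It read 2061, 2176, 2346 and 1955 in APLP2_KO and 1821, 1906, 1981 and 1843 in N_dCKO. All 8 arrays without APP lay below all 4 WT arrays, but the highest of them exceeded the lowest APLP2_KO array. The differences from WT were -0.27 ± 0.08 in APP_KO (adjusted p = 0.826) and -0.14 ± 0.08 in N_dCKO (0.542). Lss, which closes the ring to lanosterol, gave -0.15 ± 0.11 and -0.19 ± 0.11.

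**Figure D2:**
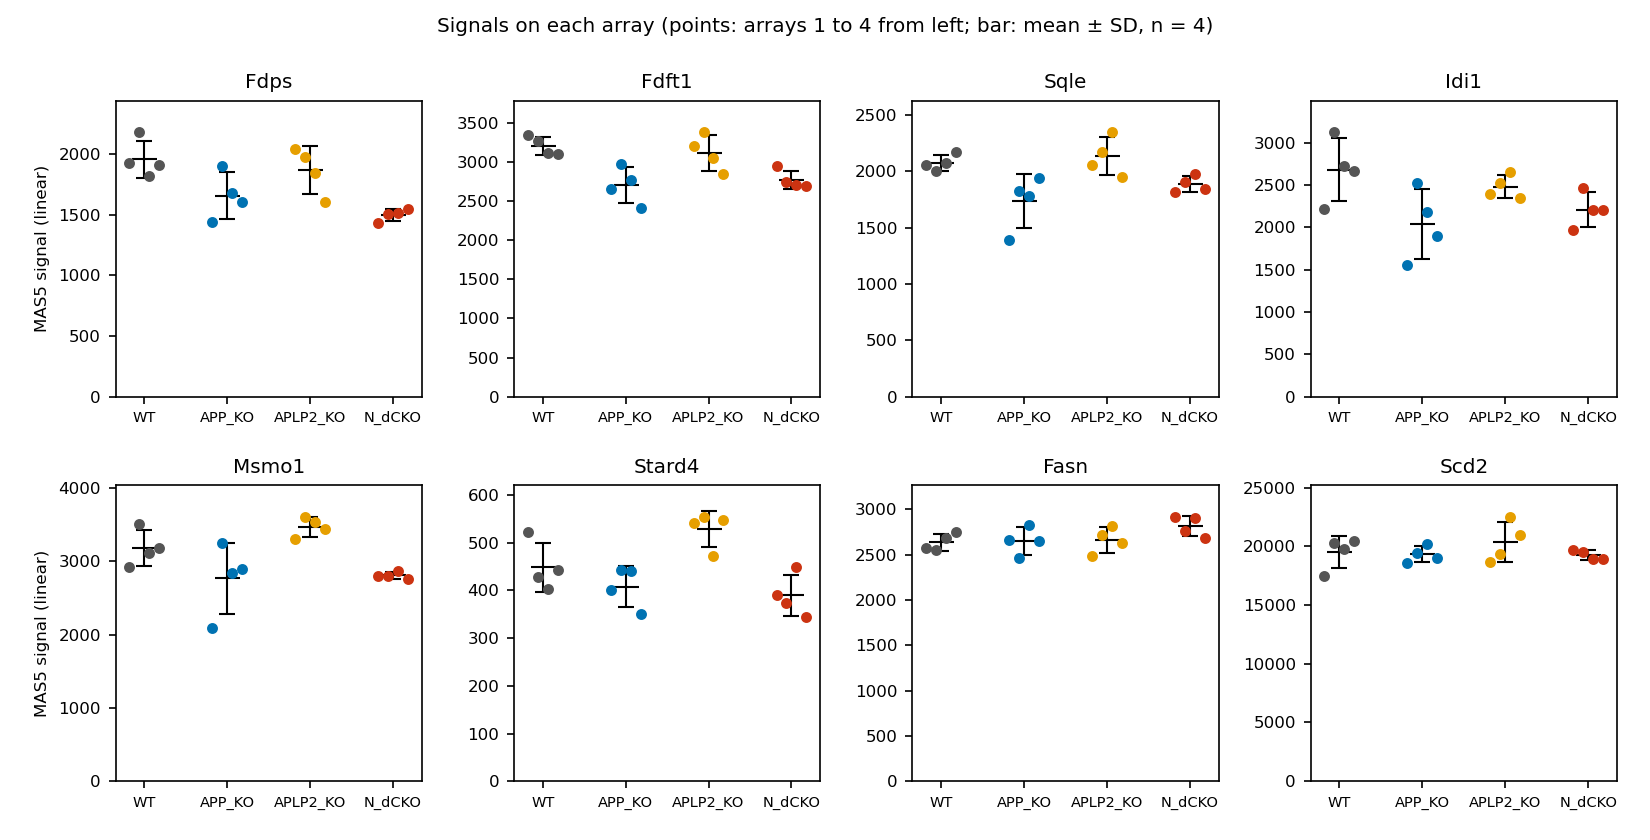
Signal on each array (y axis, linear MAS5 signal from 0) of 8 members in the 4 groups, with mean and SD (n = 4). All N_dCKO arrays of Fdps lie below all WT arrays, and Fasn and Scd2 overlap in every group.

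The 8 enzymes from lanosterol to cholesterol all read below WT on average in N_dCKO (median -0.14), and 6 of 8 were negative in APP_KO with a median of -0.16. Msmo1, which removes methyl groups from the ring, read 2918, 3512, 3113 and 3180 in WT, 2095, 3255, 2840 and 2892 in APP_KO, 3300, 3606, 3541 and 3440 in APLP2_KO and 2796, 2798, 2875 and 2766 in N_dCKO. The N_dCKO arrays were tightly grouped and lay below all WT and APLP2_KO arrays, while APP_KO spread widely, from 2095 to 3255. Its log2 fold change was -0.18 ± 0.09 against WT (adjusted p = 0.469) and -0.30 ± 0.09 against APLP2_KO (adjusted p = 0.296). Without APP_KO replicate 1, which enters through the shared variance, the latter had an adjusted p of 0.0396.

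Nsdhl, which works in the same demethylation, read 1146, 1203, 1275 and 1184 in WT, 1010, 1136, 1121 and 1000 in APP_KO, 1271, 1254, 1175 and 1159 in APLP2_KO and 1179, 1137, 1006 and 974 in N_dCKO. APP_KO lay below WT on every array and N_dCKO overlapped with WT. Both groups differed from WT by -0.17 ± 0.07, with adjusted p of 0.92 and 0.353.

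Dhcr7, whose product catalyses the last step to cholesterol, read 721, 819, 855 and 1030 in WT, 555, 726, 779 and 773 in APP_KO, 776, 917, 1140 and 918 in APLP2_KO and 765, 742, 765 and 708 in N_dCKO. N_dCKO overlapped with WT but lay below APLP2_KO on every array, by -0.32 ± 0.12 (adjusted p = 0.468).

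Hsd17b7, a ketoreductase of the demethylation steps, read 850, 775, 695 and 749 in WT, 648, 724, 711 and 660 in APP_KO, 832, 887, 780 and 811 in APLP2_KO and 730, 777, 724 and 700 in N_dCKO. N_dCKO lay below all APLP2_KO arrays and within the WT range. Its difference of 0.11 ± 0.07 in APLP2_KO against WT was 0.00 when all of its tested probe sets were averaged.

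Ebp, the sterol isomerase, read close to WT in APP_KO, at 0.01 ± 0.07. Its signals were 910, 947, 907 and 858 in WT, 905, 974, 959 and 817 in APP_KO, 855, 909, 891 and 844 in APLP2_KO and 825, 794, 845 and 883 in N_dCKO. All groups overlapped, and N_dCKO differed from WT by -0.11 ± 0.07 (adjusted p = 0.543). Tm7sf2, a sterol reductase, gave 0.04 ± 0.12 in APP_KO and -0.05 ± 0.12 in N_dCKO. The demethylase Cyp51 gave -0.18 ± 0.08 and -0.07 ± 0.08.

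For Sc5d the result depended on the probe set. The brighter one read 1252, 1246, 1312 and 1280 in WT, 980, 1221, 1309 and 1076 in APP_KO, 967, 1071, 1196 and 1209 in APLP2_KO and 1001, 949, 1038 and 893 in N_dCKO. WT lay above every array of APLP2_KO and N_dCKO on it, and APP_KO overlapped with WT. Sc5d was the 1 member whose APLP2_KO arrays all lay below the WT arrays, a separation found in 2.69% of all genes. On this probe set the log2 fold change was -0.16 ± 0.09 in APP_KO, -0.20 ± 0.09 in APLP2_KO (adjusted p = 0.623) and -0.39 ± 0.09 in N_dCKO.

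The dimmer Sc5d probe set read 539, 859, 801 and 802 in WT, 513, 763, 746 and 683 in APP_KO, 1181, 888, 1199 and 918 in APLP2_KO and 624, 848, 928 and 1049 in N_dCKO. Here APLP2_KO lay above every WT array, by 0.48 ± 0.17 (limma adjusted p = 0.49 over all tested probe sets), and N_dCKO overlapped with WT at 0.20 ± 0.17. The mean over the probe sets differed from WT by 0.14 in APLP2_KO and by -0.10 in N_dCKO, where Sc5d was then no longer called. Leaving out single arrays gave the brighter probe set adjusted p values from 0.0181 to 0.0941 in N_dCKO, the highest without WT replicate 3. Sc5d lies on chromosome 9, as does Aplp2; whether that bears on the probe sets was not tested.

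**Figure D3:**
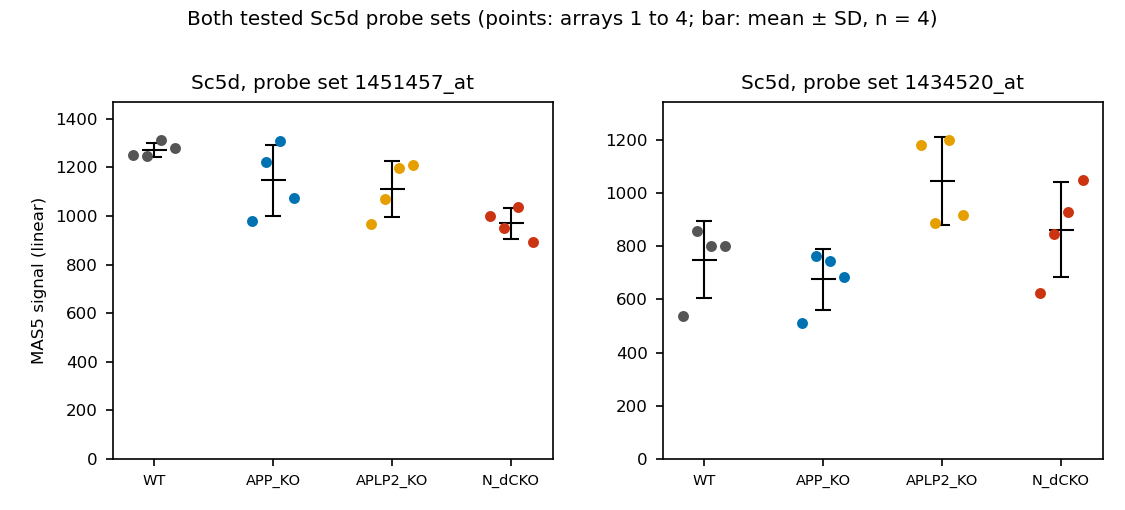
Signal on each array (y axis, linear MAS5 signal from 0) of both tested Sc5d probe sets in the 4 groups, with mean and SD (n = 4). APLP2_KO lies below WT on the brighter probe set (left) and above WT on the dimmer one (right).

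Of the 29 members, 13 had 1 tested probe set and 16 had several. In APP_KO against WT the probe sets of a gene shared one sign in 14 of these 16 genes, 13 of them negative. In N_dCKO against WT they did so in 13, of which 11 were negative. In APLP2_KO against WT 8 of 16 genes had probe sets of mixed sign. Probe sets of a gene can share transcripts and probes, so this is no count of independent measurements.

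**Figure D4:**
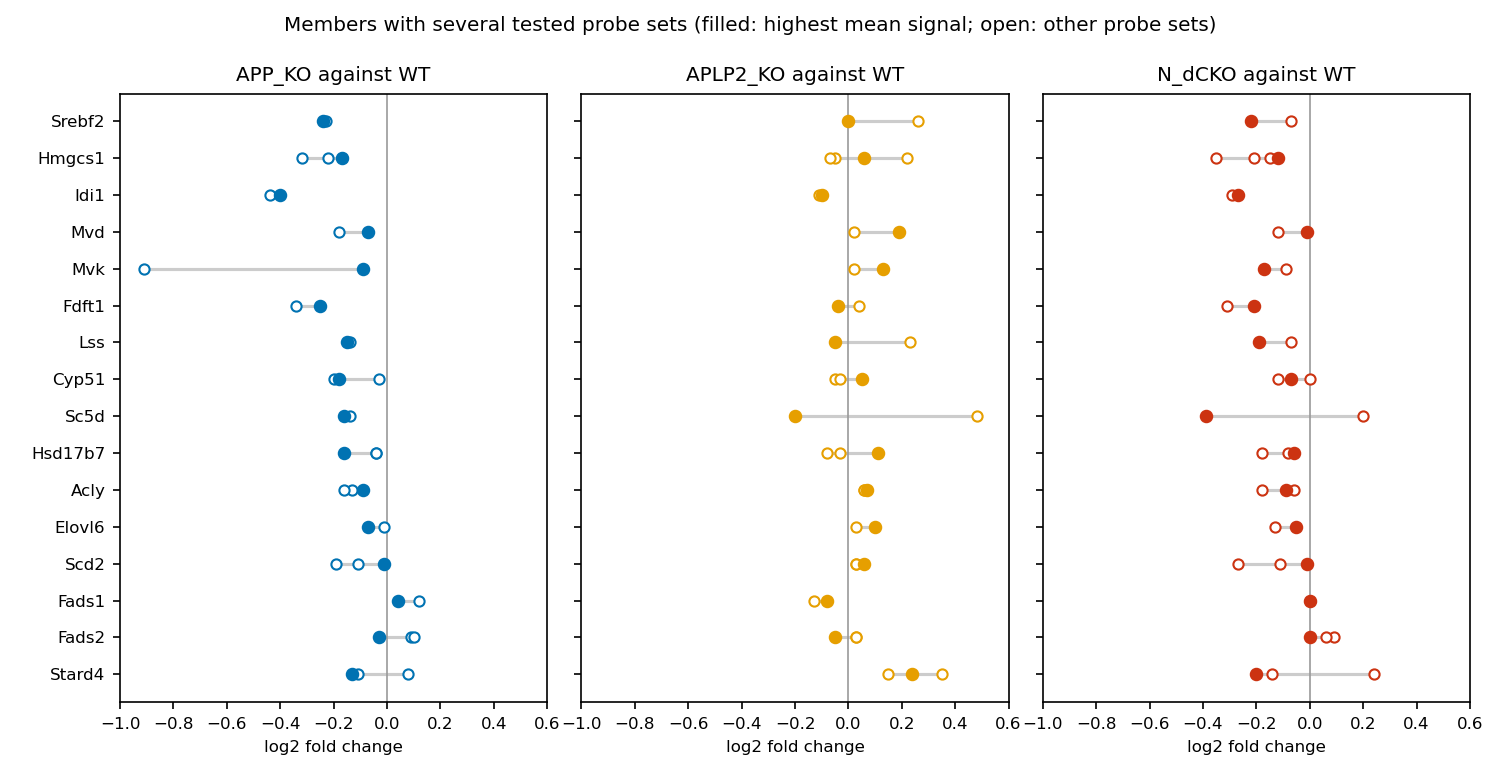
Log2 fold change against WT (x axis) of every tested probe set of the 16 members that had several, with lines joining the probe sets of a gene. Filled points are the probe sets used in the tests; Sc5d spans 0 in APLP2_KO and N_dCKO, and Mvk reaches -0.91 in APP_KO.

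The design holds a pair of comparisons of APP loss that share no array in their group means. These are APP_KO against WT, where APLP2 is present, and N_dCKO against APLP2_KO, where it is lost. The kind of APP deletion may differ between them, since the series title calls N_dCKO a conditional knockout. In the latter, 26 of 29 members and all 17 sterol enzymes had negative log2 fold changes, both with a median of -0.17, beside 48.4% of all genes. At an unadjusted limma p below 0.05, 14 members were lower, beside 4.31% of all genes. Members that were negative in both comparisons numbered 23 of 29 (79.3%), beside 27.6% of all genes. A lower level at an unadjusted limma p below 0.05 in both was found for 9 members, and for 0.857% of all genes. These were Srebf2 and the sterol enzymes Hmgcs1, Fdps, Fdft1, Sqle, Msmo1, Nsdhl, Hsd17b7 and Dhcr7. No fatty acid enzyme was among them. Without APP_KO array 1, fewer sterol enzymes passed that threshold in APP_KO against WT, so the 9 depend in part on that array. In N_dCKO against APLP2_KO alone, the 8 fatty acid enzymes had a median of -0.11 with 5 negative, and 2 were lower at that threshold. The members had been chosen with results of these data known, so the counts describe and do not test the list.

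In N_dCKO against APLP2_KO, 6 members separated downward on all arrays, namely Fdps, Dhcr7, Msmo1, Hsd17b7, Acly and Stard4, beside 2.98% of all genes. Fdps differed by -0.31 ± 0.08 (adjusted p = 0.236) and the largest difference was that of Stard4. In N_dCKO against APP_KO no member separated downward, beside 2.03% of all genes. There 11 of 29 members were negative, beside 50.4% of all genes, with a median of 0.02, and the sterol enzymes had a median of 0.04. The smallest p was that of Sc5d, at -0.23 ± 0.09 (adjusted p = 0.483).

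With both groups without APP set against both with it, 8 against 8 arrays, a comparison added after the data were seen, 26 of 29 members were negative with a median of -0.14, beside 49.2% of all genes. All 17 sterol enzymes were negative with a median of -0.17, of which 12 had an unadjusted limma p below 0.05; over the 29 members 15 did, all lower, beside 5.29% of all genes. None was called, beside 0.0171% of all genes. The smallest adjusted p values were 0.08 for Fdps (-0.28 ± 0.06) and 0.0803 for Fdft1 (-0.21 ± 0.05). Msmo1 followed with -0.26 ± 0.06 (adjusted p = 0.114), but 4 members (Fdft1, Fdps, Idi1 and Msmo1) were called when APP_KO replicate 2 was left out, where calls over all genes went from 2 to 94. The same 4 were called with the array number as a block, where 66 genes were called in all.

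With both groups without APLP2 set against both with it, 10 of 29 members were negative, beside 51.8% of all genes, and the median was 0.03, or -0.01 under median centring. None was called, beside 0.917% of all genes. Sc5d on its brighter probe set gave -0.22 ± 0.06 (adjusted p = 0.129), and the mean over its probe sets gave 0.10.

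The interaction asks whether the effect of losing both genes departs from the sum of the single losses on the log2 scale. No member was called and no gene was, while 4.15% of all genes and 0 of the 29 members had an unadjusted limma p below 0.05. The largest member value was -0.30 ± 0.15 for Stard4, followed by 0.23 ± 0.16 for Idi1, -0.20 ± 0.18 for Mvk and -0.20 ± 0.12 for Acaca, each with an adjusted p of 1. The SE of these values is larger than that of a comparison of 2 groups, with medians of 0.121 and 0.0858 over the members.

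In both groups without APP the fatty acid enzymes had medians closer to 0 than the sterol enzymes; the difference between the lists was not tested. The 8 enzymes of synthesis, elongation and desaturation differed from WT by a median of -0.02 (APP_KO), 0.06 (APLP2_KO) and -0.01 (N_dCKO), which became -0.11, -0.01 and -0.09 under median centring. None was called. Fasn, the fatty acid synthase, had one of the 4 positive values of N_dCKO against WT, 0.09 with a 95% interval from -0.02 to 0.21. It read 2572, 2545, 2684 and 2745 in WT, 2660, 2458, 2830 and 2651 in APP_KO, 2488, 2710, 2818 and 2622 in APLP2_KO and 2913, 2757, 2906 and 2681 in N_dCKO. All groups overlapped.

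Acly, which supplies acetyl-CoA from citrate to both branches, read 3514, 3649, 3871 and 3499 in WT, 3076, 3691, 3516 and 3388 in APP_KO, 3859, 3916, 3739 and 3713 in APLP2_KO and 3165, 3514, 3695 and 3293 in N_dCKO. N_dCKO lay below every APLP2_KO array, by -0.16 ± 0.06 (adjusted p = 0.473), and overlapped with WT at -0.09 ± 0.06.

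Acaca, the acetyl-CoA carboxylase that makes malonyl-CoA, read 781, 728, 745 and 804 in WT, 785, 735, 697 and 842 in APP_KO, 888, 685, 820 and 891 in APLP2_KO and 722, 630, 755 and 734 in N_dCKO. APLP2_KO held both some of the highest arrays and one of the lowest, and all groups overlapped. Elovl6, which lengthens palmitate, gave -0.07, 0.10 and -0.05 against WT in APP_KO, APLP2_KO and N_dCKO, each ± 0.09.

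On the probe sets used in the tests, the 4 desaturases in N_dCKO had differences from WT between -0.01 and 0.02. Their 95% intervals lay within -0.16 and 0.20. The dimmer tested probe sets of Scd2 gave -0.11 ± 0.08 and -0.27 ± 0.17 there. Scd1, a stearoyl-CoA desaturase, read 2765, 2934, 2586 and 3178 in WT, 2183, 3017, 2977 and 2853 in APP_KO, 2930, 3267, 3157 and 3418 in APLP2_KO and 2845, 2785, 2943 and 2996 in N_dCKO. APLP2_KO was higher on average, by 0.16 ± 0.09 (adjusted p = 0.741), with overlap. Scd2, the related desaturase abundant in brain, read 17477, 20292, 19780 and 20436 in WT, 18610, 19447, 20177 and 19003 in APP_KO, 18656, 19329, 22485 and 20952 in APLP2_KO and 19709, 19534, 18957 and 18875 in N_dCKO. All groups overlapped. Fads1 and Fads2, which desaturate polyunsaturated fatty acids, lay between -0.08 and 0.04 against WT in every knockout group, each ± 0.06. Their dimmer tested probe sets lay between -0.13 and 0.12.

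Stard4, a cytosolic carrier that moves cholesterol between membranes, was the one member of sterol transport. It read 522, 428, 403 and 442 in WT, 400, 442, 440 and 351 in APP_KO, 542, 554, 472 and 548 in APLP2_KO and 391, 373, 449 and 345 in N_dCKO. The highest WT array reached into the APLP2_KO range, while N_dCKO lay below all APLP2_KO arrays. N_dCKO differed from APLP2_KO by -0.44 ± 0.10 (adjusted p = 0.169), keeping 73.9% of its level. Against WT the values were -0.13 ± 0.10 in APP_KO, 0.24 ± 0.10 in APLP2_KO (adjusted p = 0.63) and -0.20 ± 0.10 in N_dCKO, and another probe set at 122 on average gave 0.24 in N_dCKO.

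Myelin markers also read lower in both groups without APP. Of 16 listed genes of oligodendrocytes and myelin, 14 were tested. All 14 had negative log2 fold changes in APP_KO (median -0.47) and in N_dCKO (median -0.51). In N_dCKO 1 was called, beside 0.943% of all genes. The summed signal of the 14 ran from 101298 to 127368 in WT, from 74807 to 115234 in APP_KO, from 102633 to 114191 in APLP2_KO and from 74450 to 92011 in N_dCKO. None of the 14 was near 0, with Mbp between 25500 and 33600 and Mog between 1130 and 2890 over the 16 arrays. The part of myelin content in the sterol result was not tested beyond a fit with the list's mean as a covariate. That log2 mean ran from 12.04 to 12.48 in WT and from 11.41 to 11.85 in N_dCKO. Without overlap, the fit cannot separate myelin from genotype there. Calls over all genes in N_dCKO against WT went from 110 to 15 with it. In that fit the 17 sterol enzymes had medians of -0.10 in APP_KO and -0.05 in N_dCKO, 14 and 12 of them were negative, and neither Fdps (-0.22 ± 0.10, adjusted p = 0.653) nor Sc5d (-0.31 ± 0.12, adjusted p = 0.549) was called in N_dCKO.

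The mean log2 signal of the 17 sterol enzymes relative to the WT mean was -0.37, -0.05, -0.09 and -0.19 on APP_KO arrays 1 to 4. On N_dCKO arrays it was -0.16, -0.13, -0.14 and -0.21, below all WT arrays (-0.05 to 0.06). The myelin list read -0.76, 0.09, -0.61 and -0.47 on the same APP_KO arrays and -0.80, -0.52, -0.47 and -0.36 on the N_dCKO arrays. APP_KO array 1 was thus lowest and array 2 highest of their group on both lists. APP_KO against WT depended on array 1: without it, the sterol enzymes had a median of -0.13 with 14 of 17 negative, and 4 rather than 10 had an unadjusted limma p below 0.05. The fatty acid enzymes ranged from -0.14 to 0.08 over all arrays.

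**Figure D5:**
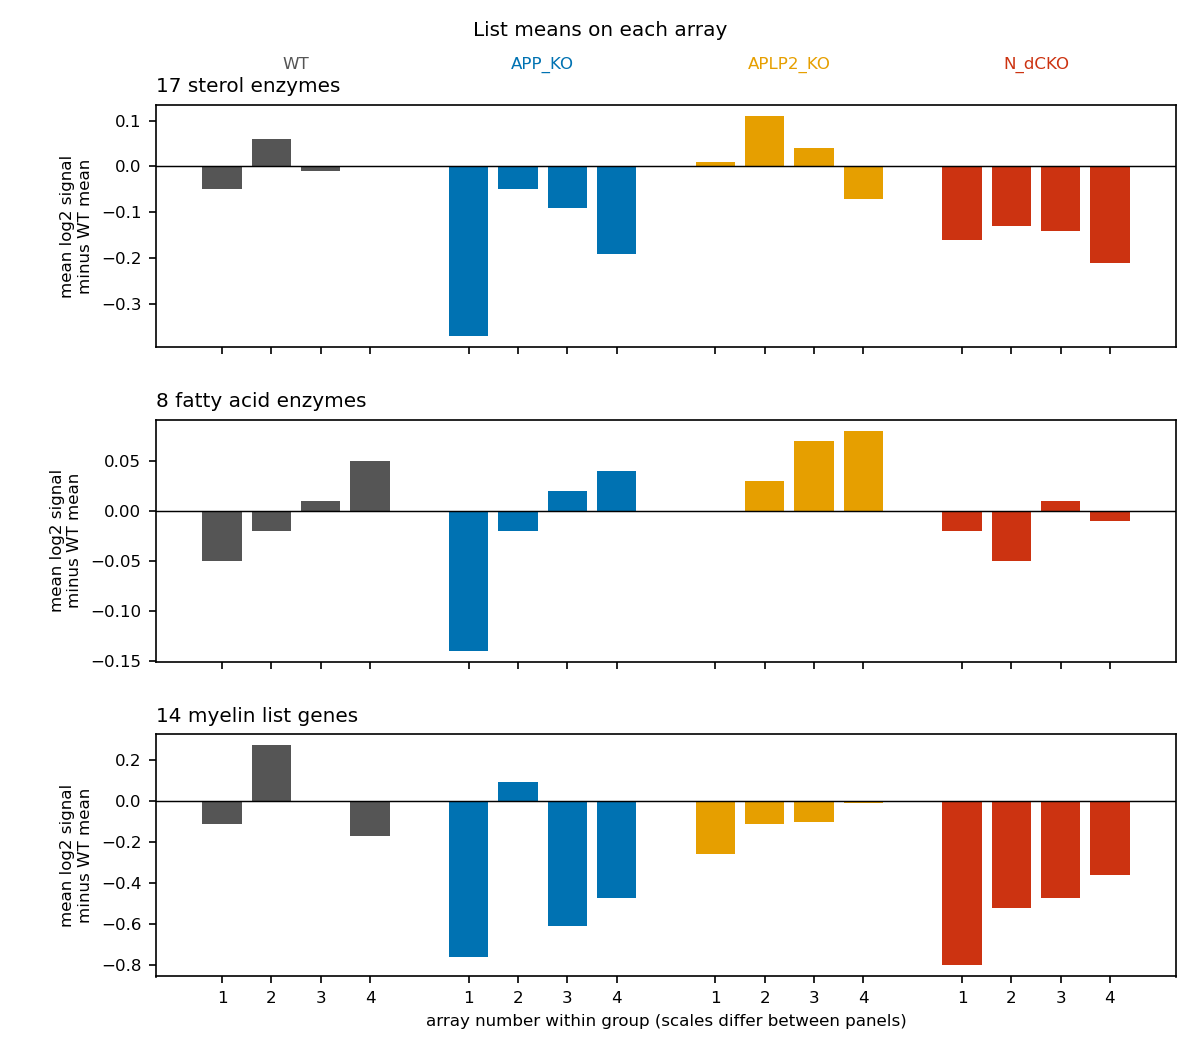
Mean log2 signal minus the WT mean (y axis, scales differ between panels) on each of the 16 arrays for 17 sterol enzymes, 8 fatty acid enzymes and 14 myelin genes. The sterol and myelin lists are negative on all N_dCKO arrays, and APP_KO array 1 is the lowest array of its group in all 3 panels.

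Markers of other cell types were read in the same way. Choroid plexus genes averaged a log2 signal of 9.47 ± 0.44 in WT and 6.40 ± 1.51 in N_dCKO (SD, n = 4). The N_dCKO group was uneven, with 5.25, 5.83, 8.62 and 5.92 on arrays 1 to 4, while WT arrays ran from 9.01 to 10.03. All 9 tested were called lower, with Otx2 and Kcne2 at or near 0 on some arrays (lowest signals 0.425 and 4.87). All 11 microglia genes tested had negative values in N_dCKO, with a median difference from WT of -0.41. Of these 11, 5 were called, beside 0.943% of all genes in that comparison. All 11 were negative in APP_KO (median -0.15) and in APLP2_KO (median -0.25) as well, with none called. Astrocyte genes had a median of 0.13 in N_dCKO with 0 of 9 called. Of 7 oligodendrocyte precursor genes, none was called. Their median difference from WT was -0.12 in APP_KO and -0.13 in N_dCKO, with 5 of 7 negative each time, and 0.09 in APLP2_KO. N_dCKO differed from APLP2_KO by a median of -0.18 over these 7 genes, with 6 negative. Neuron and endothelial genes had N_dCKO medians of 0.07 and -0.04, with none called. Hippocampus genes had a median of 0.05 there, with 1 of 8 called lower and a lowest value of -1.1. When the Gapdh ratio entered the fit, 13 of 17 sterol enzymes were negative in N_dCKO with a median of -0.05, and with the choroid plexus mean 12 were, with a median of -0.09. Neither fit called a member. Neither covariate overlapped between WT and N_dCKO, so these fits cannot separate either from genotype. Calls over all genes in N_dCKO against WT went from 110 to 23 and 5. Fdps was at -0.26 ± 0.10 and -0.24 ± 0.15 in these fits and Sc5d at -0.30 ± 0.11 and -0.27 ± 0.16. In APP_KO the sterol enzymes had medians of -0.16 and -0.17, with 14 and 15 of 17 negative. The part of these measures in the sterol result was otherwise not tested.

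Genes around the pathway were read from a list of 41, covering cleavage and sensing of SREBPs, uptake, efflux and turnover of sterols, and elongation of long fatty acids; 32 were tested. In N_dCKO 18 of 32 had a negative difference from WT (median -0.02) and 1 was called, beside 0.943% of all genes. That gene was Elovl5, an elongase of polyunsaturated fatty acids, which was higher in N_dCKO by 0.21 ± 0.05 (adjusted p = 0.0479). Elovl5 read 3909, 3901, 4050 and 4125 in WT, 3993, 4168, 4337 and 4387 in APP_KO, 4529, 4523, 5070 and 4855 in APLP2_KO and 4542, 4809, 4659 and 4503 in N_dCKO. All 8 arrays without APLP2 lay above all 8 with it, by 0.19 ± 0.04 in the 8 against 8 comparison (adjusted p = 0.0095), a separation upward found in 0.0943% of all genes. Its other probe set gave 0.22 ± 0.06 there. Elovl5 lies on chromosome 9, as do Aplp2 and Sc5d, and under median centring it was called in neither comparison (adjusted p = 0.56 and 0.438).

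Elovl1, an elongase of saturated very long fatty acids, read 1152, 1341, 1279 and 1043 in WT, 745, 1173, 860 and 934 in APP_KO, 999, 1174, 1047 and 1189 in APLP2_KO and 746, 883, 993 and 850 in N_dCKO. N_dCKO lay below every WT and APLP2_KO array. Its difference from WT was -0.47 ± 0.12 (adjusted p = 0.0591), and APP_KO differed by -0.38 ± 0.12 (adjusted p = 0.826). Elovl7 read 662, 781, 717 and 601 in WT, 575, 691, 685 and 382 in APP_KO, 791, 688, 617 and 732 in APLP2_KO and 289, 437, 599 and 536 in N_dCKO. Again N_dCKO lay below every WT and APLP2_KO array, with a difference from WT of -0.60 ± 0.19 (adjusted p = 0.146). All 3 tested Elovl1 probe sets and all 6 of Elovl7 were negative in N_dCKO. With the myelin list mean as a covariate the N_dCKO values were -0.08 ± 0.09 for Elovl1 and -0.27 ± 0.24 for Elovl7. That covariate did not overlap between WT and N_dCKO, so it cannot be separated from genotype. The SREBP escort Scap (0.02 ± 0.06) and the proteases Mbtps1 and Mbtps2, which release active SREBP (0.00 ± 0.06 and 0.02 ± 0.07), showed no difference beyond their error in N_dCKO.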

How the data were processed

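Total RNA from 16 hippocampus samples was hybridised as biotinylated cRNA. The deposited values are linear MAS5 signal intensities made by the authors, per the submitters' processing notes; those notes name no MAS5 version. Each array had a 2% trimmed mean of 500, and the number of arrays limits the precision. From these, log2(signal + 9) was computed, so fold changes of dim genes are understated. Probe sets with 1 gene symbol (34945 of 45101; 932 had several, 9160 were not listed, 64 were controls) and a mean log2 signal of at least 6.60, the median of all, were kept. The probe set with the highest mean stood for its gene. One mean per group was fitted to 16 arrays with limma 3.58.1 (lmFit, then eBayes with a variance trend) in R 4.3.3, with Benjamini-Hochberg adjustment over 11664 genes, and tested on simulated data: 58.7% of planted log2 changes of 0.4 and 89.1% of those of 1 were recovered for N_dCKO against WT (11678 genes). The simulated noise was independent between genes and arrays, without deviations shared across an array. Member differences in N_dCKO against WT were all smaller in size than 0.4, so these shares need not hold for them. Of 8 comparisons, 6 were fixed in advance and 2 (8 against 8 arrays) added after seeing the data. Signals on every array are given for called members, the 4 with the smallest p in each comparison and the 1 with the smallest p in each role; of related genes, those called and the 3 with the smallest p in N_dCKO against WT are named. Same-numbered arrays deviated together in WT and APP_KO (correlation of their deviations from the group means 0.192 to 0.301 in 4 pairs), which was taken as pairing from the data, since the labels state no pairing; in no other pair of groups did all 4 exceed 0.1. The members and lists were chosen with earlier results of these data known. Alternatives varied the pseudocount, filter, normalization, probe set rule, variance model, covariates and arrays. Figures used matplotlib 3.10.9.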

Additional observations from a re-analysis of the deposited data

Results flagged for a closer look

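Of 116 groups of 4 arrays, 1 for each member and genotype, 2 held an array whose gap to the nearest other array passed Dixon's 95% critical value, and chance gives about 1 in 20 groups. Pmvk, the phosphomevalonate kinase, read 865 on APP_KO array 2 and between 642 and 655 on the other APP_KO arrays. Stard4 read 472 on APLP2_KO array 3 and between 542 and 554 on the other APLP2_KO arrays.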

How the results depend on the processing

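For 36 results on single genes, 1033 of 1103 alternative values kept direction and side of the threshold, 45 lost a call, 20 gained one and 5 changed sign. All 5 arose when tested probe sets of a gene were averaged: Hsd17b7 gave 0.00 in APLP2_KO against WT and -0.02 for APLP2 loss, and Sc5d gave 0.14 in APLP2_KO against WT, 0.05 in N_dCKO against APP_KO and 0.10 for APLP2 loss. In N_dCKO against WT the 2 called members became 1 (Fdps) with averaged probe sets and 0 without the variance trend or with the Gapdh ratio, the myelin mean or the choroid plexus mean as a covariate. Leaving out single arrays gave 0 to 2. None of these covariates overlapped between WT and N_dCKO, so those fits cannot separate them from genotype. For N_dCKO against APLP2_KO and for APLP2 loss, leaving out single arrays gave 0 to 1, the 1 being Msmo1 and Sc5d, each without APP_KO replicate 1. For APP loss it gave 0 to 4, and averaged probe sets gave 1 (Fdft1). The causes were not tested. Only in WT and APP_KO did the deviations of all 4 same-numbered pairs correlate above 0.1. In APLP2_KO and N_dCKO these correlations were 0.0822, 0.208, 0.0906 and 0.136 for arrays 1 to 4. A fit of those groups alone with the block was not run. With the replicate number as a block in a fit of WT and APP_KO alone, 1 member (Idi1) was called. With that block over all 16 arrays, 4 members were called for APP loss (Fdft1, Fdps, Idi1 and Msmo1; 66 genes in all, beside 2) and 2 in N_dCKO against WT, and the count of members called stayed the same in the other 6 comparisons. Over all genes the block gave 198 calls in N_dCKO against WT, array weights 170, no variance trend 73, and the Gapdh, myelin and choroid plexus covariates 23, 15 and 5, beside 110. Median centring gave 17 in N_dCKO against APLP2_KO, beside 3, and 29 for APP loss, beside 2. The Elovl5 call in N_dCKO was lost in 21 of 31 alternatives (adjusted p from 0.023 to 0.567).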
